A study of Mus musculus with 2 samples.

Results

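The genes of the cytosolic ribosomal proteins and their testis paralogs were described across the cell classes of the adult mouse testis. Members were chosen by symbol: names that begin with Rpl or Rps and a digit, and Rplp0, Rplp1, Rplp2 and Rpsa, without pseudogene rows (-ps) and without the ribosomal S6 kinases. The rule found 92 of 51868 rows of the count matrix, 54 named for the large and 38 for the small subunit, and all 92 identifiers were found in the GRCm38 annotation. Of these, 91 had at least 1 UMI, a molecular tag that marks 1 captured RNA molecule. Rps12l1 had 0, which allows up to 0.0520 CPM (UMIs scaled to the same total per group) over all cells, and Rps3a3 had 9. Rps19bp1 fits the rule but encodes a protein that binds Rps19, and Rps4l, Rpl37rt, Rpl6l, Rps3a2, Rps3a3 and Rps12l1 are annotated as processed pseudogenes.

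The data were single-cell RNA counts from testis tissue of 2 C57Bl/6J Crl mice at 8 weeks of age, with 1 droplet library (Chromium 3′, v2 chemistry) per mouse and no treatment. The authors took a part of the testis and filtered the cell suspension through a strainer, in part to keep somatic cells few. Mouse 1 gave 1237 cells with 27450497 UMIs and mouse 2 gave 1315 cells with 30302332 UMIs, and no barcode was shared. Cells were grouped without the members, and groups were named from marker genes: 161 early spermatocyte-like, 530 pachytene or later spermatocyte-like, 1136 round spermatid-like and 707 elongating or condensing spermatid-like cells. These classes are called early, pachytene, round and elongating cells below. Both spermatid classes were made of a pair of clusters, and the larger round spermatid-like cluster (691 cells) passed only 4 of 14 markers of its name. Clusters of 7, 6 and 5 cells carried spermatogonial, Sertoli and Leydig markers. One mouse 1 cell of the 7-cell cluster held 372 UMIs of Sertoli markers, so that values of this cluster are given as a description, with that cell and without it where it changes them.

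Ribosomal proteins and ribosomal RNA form the small subunit, which reads the mRNA, and the large subunit, which joins amino acids and threads the new chain through its exit tunnel. Most mammalian ribosomal proteins come from a single active gene. A few of these genes lie on the X chromosome, which is silenced in male germ cells during meiosis, and some of them have an autosomal copy that is known to be active in the testis.

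The sequences of the X-linked Rpl39 and its paralog Rpl39l are shown because the counts rest on telling such copies apart. Rpl39 (chrX:37082520-37085402, minus strand, 3 exons) and Rpl39l (chr16:10170226-10174911, plus strand, 3 exons) encode a small protein in the wall of the exit tunnel. Their coding sequences have 156 bases each and differ at 23 of them, which are in capitals (GENCODE transcripts, GRCm38).
Rpl39: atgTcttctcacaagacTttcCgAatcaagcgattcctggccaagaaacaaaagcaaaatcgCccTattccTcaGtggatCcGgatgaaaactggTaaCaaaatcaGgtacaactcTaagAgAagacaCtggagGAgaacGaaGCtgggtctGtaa
Rpl39l: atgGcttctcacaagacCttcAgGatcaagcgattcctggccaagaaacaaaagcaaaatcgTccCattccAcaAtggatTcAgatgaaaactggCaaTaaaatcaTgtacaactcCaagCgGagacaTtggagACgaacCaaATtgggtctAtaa
The sequenced RNA read had 98 bases, and the longest run of bases that the transcripts of both genes share had 38. For Rpl10 (chrX:74270812-74273135, plus strand, 7 exons) and Rpl10l (chr12:66283379-66284401, minus strand, 1 exon) the coding sequences of 645 bases were 84.8% identical, and the longest shared run had 23 bases. Rpl36a (chrX:134585654-134588062, plus strand) and Rpl36al (chr12:69182731-69184083, minus strand) were 87.9% identical, with a longest shared run of 24 bases. Rps4x (chrX:102184941-102189394, minus strand) and Rps4l (chr6:148354656-148355598, plus strand, opposite Tmtc1) shared a run of at most 38 bases. No pair shared a run as long as a read.

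The promoters of both pairs are shown because parent and paralog differed in level between the cell classes below. Each run holds 250 bases before the annotated start and the first 30 after it, from the RefSeq table (GRCm38.p6), and capitals mark CGGAAG on either strand, the core of the sites that ETS family factors bind. For Rpl39 the RefSeq start lies inside the GENCODE gene positions given above, so much of its run, with the marked motif, overlaps the gene.
Rpl10, chrX:74270566-74270845, plus strand: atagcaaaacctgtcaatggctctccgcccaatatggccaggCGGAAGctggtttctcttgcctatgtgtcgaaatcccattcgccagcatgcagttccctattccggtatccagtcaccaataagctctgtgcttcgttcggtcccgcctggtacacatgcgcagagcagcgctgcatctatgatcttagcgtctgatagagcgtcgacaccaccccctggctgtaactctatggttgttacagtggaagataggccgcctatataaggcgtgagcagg
Rpl10l, chr12:66284372-66284651, minus strand: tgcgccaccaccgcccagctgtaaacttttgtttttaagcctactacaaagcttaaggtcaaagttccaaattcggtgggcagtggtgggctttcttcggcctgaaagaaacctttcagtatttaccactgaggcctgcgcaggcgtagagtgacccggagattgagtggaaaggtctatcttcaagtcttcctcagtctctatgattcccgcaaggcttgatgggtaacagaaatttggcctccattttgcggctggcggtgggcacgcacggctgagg
Rpl39, chrX:37085193-37085472, minus strand: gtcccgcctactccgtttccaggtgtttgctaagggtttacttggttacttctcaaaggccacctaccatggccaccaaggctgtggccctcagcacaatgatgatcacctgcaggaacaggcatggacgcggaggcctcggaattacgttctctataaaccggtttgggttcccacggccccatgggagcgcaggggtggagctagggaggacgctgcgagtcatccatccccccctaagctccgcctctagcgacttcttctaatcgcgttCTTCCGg
Rpl39l, chr16:10169978-10170257, plus strand: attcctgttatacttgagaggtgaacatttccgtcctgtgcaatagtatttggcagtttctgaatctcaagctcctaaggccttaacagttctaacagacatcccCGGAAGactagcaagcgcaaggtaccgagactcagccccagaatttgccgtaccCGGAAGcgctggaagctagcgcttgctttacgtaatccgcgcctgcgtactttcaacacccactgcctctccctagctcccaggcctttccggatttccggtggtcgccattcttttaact
In the table's windows of 250 bases before to 50 after the start, CGGAAG on either strand was found in 47 of 81 member windows and in 16.9% of all 32851 windows. The table held windows for 69 members, of which 44 had the motif. TCTCGCGA was found in 12 of the 81 windows and in 0.995% of all, and TGACGTCA, the cAMP response element, in 5 and in 1.79%. No 2 of these 3 motifs can share a base. Rpl10, Rpl39 and Rpl39l held CGGAAG in the stretch shown and Rpl10l did not.

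The share of UMIs on the members was highest in the earliest germ cells. Early cells had 7.81% in mouse 1 and 7.62% in mouse 2, and pachytene cells 4.92% and 4.89%. Round cells had 4.18% and 3.68%, and elongating cells 3.28% and 2.90%. The values of the 4 classes did not overlap, and no test was made on shares. In the 7-cell cluster with spermatogonial markers the share was 11.6% and 14.5%, and 13.4% in mouse 1 without the cell with Sertoli markers. Cells with Sertoli markers had 4.22% (5 cells) and 4.43% (1 cell), and those with Leydig markers 4.94% (1 cell) and 7.16% (4 cells).

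Counted as a mean per cell, the order was different. Early cells held a mean of 1608 and 1624 member UMIs per cell and pachytene cells 1669 and 1668. The mean total per cell was 20590 and 21300 UMIs in early and 33900 and 34120 in pachytene cells. The median totals over both mice were closer, at 19490 and 20920, so cells with many UMIs raised the pachytene means. A median of member UMIs per cell was not computed. Round cells held 853 and 828, and elongating cells 502 and 510. Within the elongating class, the cluster of 193 cells held 708 and 689 and the cluster of 514 cells, in which the markers of its class had the highest summed level, 440 and 427. The share, in contrast, was higher in the latter cluster (3.47% and 3.13%) than in the former (2.96% and 2.63%). A share of UMIs cannot tell fewer member transcripts from more of other transcripts, and captured UMIs are not RNA molecules per cell.

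**Figure D1:**
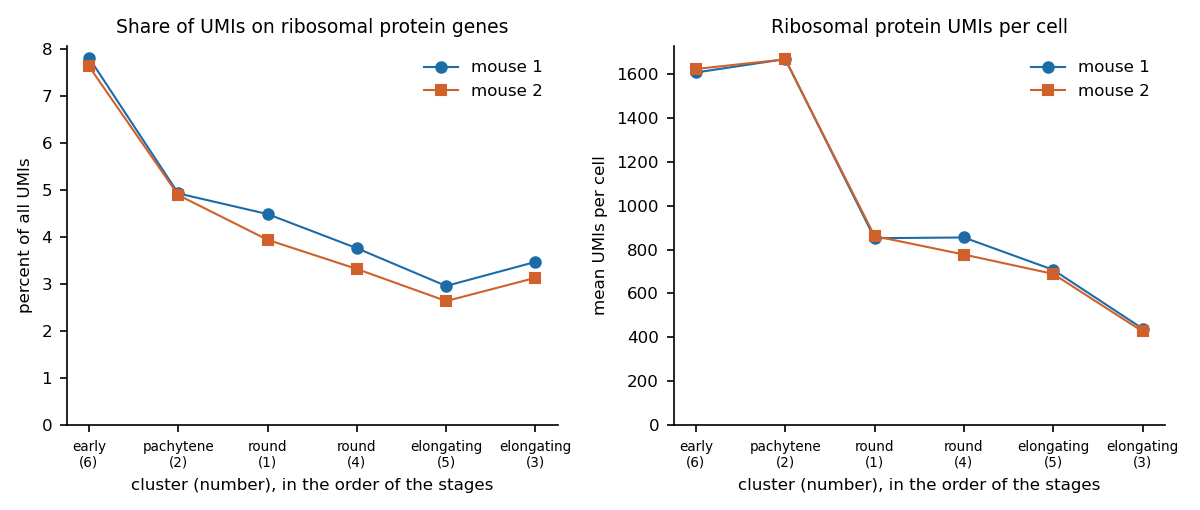
Percent of all UMIs on the 92 members (left) and mean member UMIs per cell (right) in the 6 germ cell clusters with over 100 cells, ordered by stage, for mouse 1 (circles) and mouse 2 (squares). The share is lowest in cluster 5 (2.96% and 2.63%) and higher in cluster 3 (3.47% and 3.13%), where UMIs per cell are lowest (440 and 427).

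The levels of single members spanned a wide range. The scale here is CPM from 3′ counts, in which a transcript gives 1 UMI whatever its length. Rps29, a small zinc-binding protein of the small subunit, had the highest level over all cells (2298 CPM). Rpl41 (2161 CPM), the member with the shortest coding sequence here, Rpl37a (1639 CPM), Rps27 (1573 CPM) and Rps14 (1452 CPM) came next. Rpl41 had a UMI in all 2552 cells and Rps29 in 2549. At the low end stood the X-linked Rps4x (124 UMIs in all), Rpl39 (214), Rpl36a (231) and Rpl10 (455), together with Rpl3l (12), Rps3a2 (53) and Rpl6l (186). The order at the top depended on the class. Rps29 was above Rpl41 in pachytene cells of both mice (2618 and 2303 CPM against 2312 and 2152 CPM), and Rpl41 above Rps29 in elongating cells (2431 and 2218 CPM against 2251 and 1642 CPM).

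The 4 X-linked members had low levels in the 4 large germ cell classes and higher levels in the few cells with Leydig markers. Rpl10, which joins the large subunit late in its assembly, was at 8.24 and 3.48 CPM in early cells of mouse 1 and mouse 2. It stood at 3.54 and 2.38 CPM in pachytene, 7.68 and 8.48 CPM in round and 7.24 and 9.26 CPM in elongating cells. In the few Leydig-like cells it was at 500.5 CPM (5 UMIs in 1 cell) and 1179 CPM (48 UMIs in 4 cells). In the 7-cell cluster with spermatogonial markers it was at 293 and 341 CPM. The small clusters thus lay above every large germ cell class in both mice.

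Rpl39 was low as well, apart from early cells of mouse 1. Its levels in early cells were 15.6 CPM in mouse 1 and 2.17 CPM in mouse 2, from 17 and 5 UMIs, and lay between 1.32 and 2.65 CPM in the 3 later classes. Rpl36a, a protein near the exit site of the transfer RNA, was at 7.33 and 0.869 CPM in early cells and between 0.792 and 3.71 CPM later. Mouse 1 stood above mouse 2 for Rpl36a in each of the 4 classes. Single cells weighed on later levels as well. In pachytene cells of mouse 1, 1 cell held 10 of 31 Rpl36a UMIs, and without it the level was 2.01 CPM in place of 2.97 CPM. For Rpl39 in the same class and mouse, 1 cell held 6 of 14 UMIs, and the level without it was 0.767 CPM in place of 1.34 CPM. In early cells, markers of Sertoli cells differed between the mice too, with summed levels of 167 CPM in mouse 1 and 56.1 CPM in mouse 2. A single early cell of mouse 1 with 66 Sertoli marker UMIs held 4 UMIs of Rpl39 and 4 of Rpl10. Without this cell, Rpl39 was at 12.1 CPM and Rpl10 at 4.64 CPM in mouse 1, and the part of Sertoli RNA in the remainder was not tested. Another early cell of mouse 1, with 30 Sertoli marker UMIs, held 3 UMIs of Rpl39, 2 of Rpl10 and 1 of Rpl36a. A further one, with 1 Sertoli marker UMI, held 2 of Rpl39, 1 of Rpl10 and 3 of Rpl36a. The early levels of mouse 1 thus rested in good part on a few cells.

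Rps4x, a small-subunit protein, had the fewest UMIs of the X-linked members. It was at 0.916 and 0.435 CPM in early and at 2.29 and 1.35 CPM in elongating cells, from 1, 1, 13 and 8 UMIs. The 1 early UMI of mouse 1 lay in the cell with 66 Sertoli marker UMIs named above. In Leydig-like cells Rps4x was at 701 CPM (7 UMIs in 1 cell) and 1007 CPM (41 UMIs in 4 cells). In contrast to the other X-linked members, it had no UMI in the 7-cell cluster with spermatogonial markers, which allows up to 35.3 CPM, while Rps4l had 45 UMIs there.

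The autosomal partners were more abundant than the X-linked genes in each of the 4 classes and both mice. Rpl39l was at 1016 and 956 CPM in early, 1045 and 1010 CPM in pachytene, 1258 and 1142 CPM in round and 330 and 347 CPM in elongating cells. Rps4l was at 385 and 362 CPM, 304 and 329 CPM, 373 and 410 CPM and 75.4 and 93.1 CPM in the same order. Rpl10l was at 166 and 174 CPM, 155 and 152 CPM, 127 and 124 CPM and 20.5 and 16.3 CPM. These paralogs were thus lowest in the last class in both mice. Rpl36al stood at 408 and 349 CPM in the first and at 138 and 101 CPM in the last class, with intermediate values between.

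**Figure D2:**
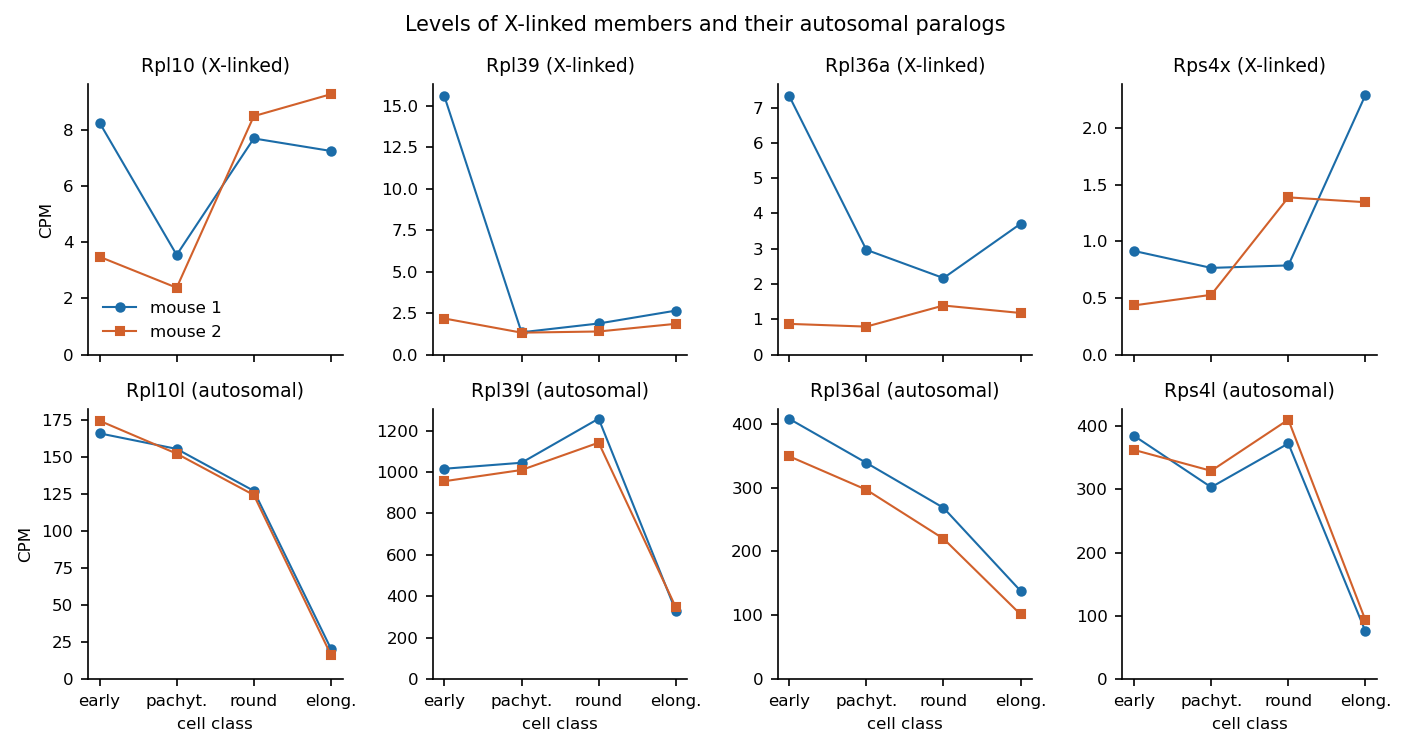
Level in CPM (linear axes that start at 0) of the X-linked members (top) and their autosomal paralogs (bottom) in 4 cell classes, for mouse 1 (circles) and mouse 2 (squares). Rpl10 is lowest in pachytene cells (3.54 and 2.38 CPM), and Rpl10l, Rpl39l and Rps4l are lowest in elongating cells.

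As a share of the pair's UMIs, the paralog took nearly all in the spermatocyte classes. Rpl39l took 98.5% and 99.8% of the UMIs of its pair in early cells and 99.9% in both mice in pachytene cells. Rps4l took between 97.1% and 99.9% in the 4 large classes and Rpl36al between 97.4% and 99.7%. Rpl10l differed from them late: its share was 95.3% and 98.02% in early, 97.8% and 98.5% in pachytene, 94.3% and 93.6% in round and 73.9% and 63.8% in elongating cells. In cells with Leydig markers the X-linked gene of these 3 pairs had nearly all UMIs instead, whereas Rpl36al had 17 of 48. There, Rpl10l had 0 of 53 UMIs of its pair (exact binomial interval 0% to 6.72%), Rpl39l 2 of 48 (4.17%, 0.509% to 14.2%) and Rps4l 1 of 49 (2.04%, 0.0517% to 10.9%). The intervals cover counting error only. The 6 cells with Sertoli markers were mixed. There the paralog took 12.5% of the pair for Rpl10l (1 UMI), 55.2% for Rpl39l (16 UMIs), 43.5% for Rps4l (10 UMIs) and 85.2% for Rpl36al (23 UMIs).

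In the 7-cell cluster with spermatogonial markers both members of 3 of the 4 pairs had UMIs. Rpl10l had 2 of 29 UMIs, Rpl39l 26 of 70 and Rpl36al 30 of 109, whereas Rps4l had all 45 and Rps4x 0. Markers of elongating cells summed to 4196 and 5142 CPM in this cluster, and to 8408 and 5476 CPM in the cells with Leydig markers. In the cells with Sertoli markers they summed to 6588 CPM in mouse 1 (5 cells) and 18570 CPM in mouse 2 (1 cell). The part of free RNA in these counts was not tested. Without the cell with Sertoli markers, the share of Rpl39l in mouse 1 was 78.6% in place of 43.8%, since this cell held 15 of 18 Rpl39 UMIs of mouse 1, and the share of Rpl36al was 20% in place of 26.3%.

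Autosomal pairs behaved in several ways. Rpl22l1, a paralog of the RNA-binding Rpl22, took 54.0% and 55.7% of the pair in early cells, 89.3% and 86.9% in pachytene, 90.3% and 88.3% in round and 76.0% and 76.2% in elongating cells. Rps27l took 24.6% and 21.2% in the first class and 5.35% and 7.62% in the last, and Rpl7l1 9.05% and 7.38% and then 1.13% and 1.28%. Rpl3l, the muscle-type partner of Rpl3, had 12 UMIs in all, against 12672 of Rpl3.

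**Figure D3:**
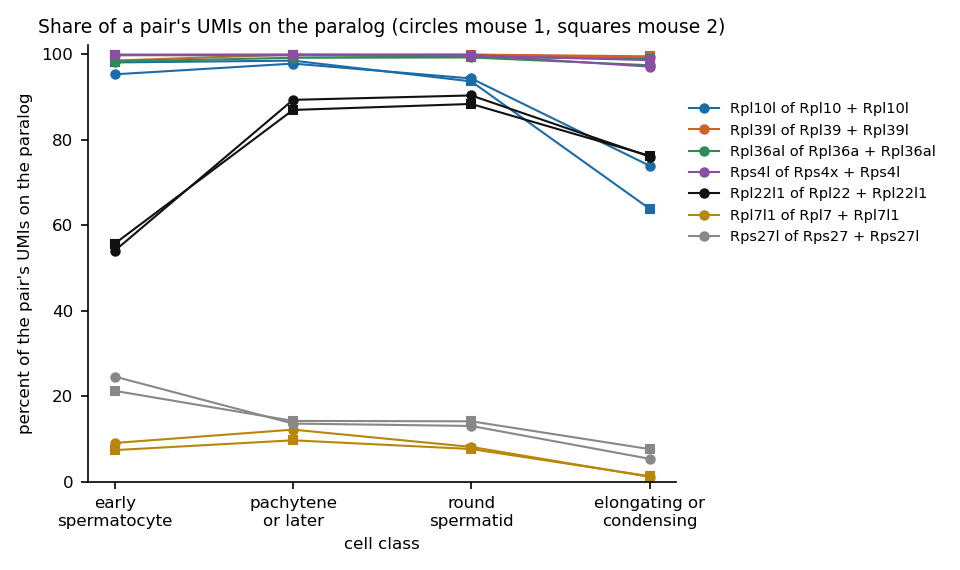
Percent of a pair's UMIs that fell on the paralog, per cell class and mouse (circles mouse 1, squares mouse 2), for 7 pairs. Rpl22l1 has 54.0% and 55.7% in early cells and at least 86.9% in pachytene and round cells, and of the 7 only Rpl10l and Rpl22l1 lie more than 10 points lower in elongating than in round cells in both mice.

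Consecutive classes were compared on UMIs summed per mouse and class with edgeR's quasi-likelihood test, adjusted by Benjamini-Hochberg over 15067 genes, of which 88 were members. Rps4x, Rpl3l, Rps3a3 and Rps12l1 had too few counts and were not tested. Nothing but the cells of 2 mice enters these tests, and the classes of a mouse come from 1 library. Since all genes together shift between classes, 4 scalings were used. They were TMM (the primary one), RLE, total UMIs, and the number of cells, which gives mean UMIs per cell. The median log2 fold change of all genes under these was 0.09, -0.14, -0.25 and 0.41 from early to pachytene cells, -0.00, 0.07, -0.21 and -0.86 from there to round cells, and -0.33, 0.08, -1.12 and -1.50 in the last step. Values below are log2 fold changes with TMM unless another scaling is named. The test returns no standard error, so SE here is the absolute log2 fold change divided by the square root of its F statistic.

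**Figure D4:**
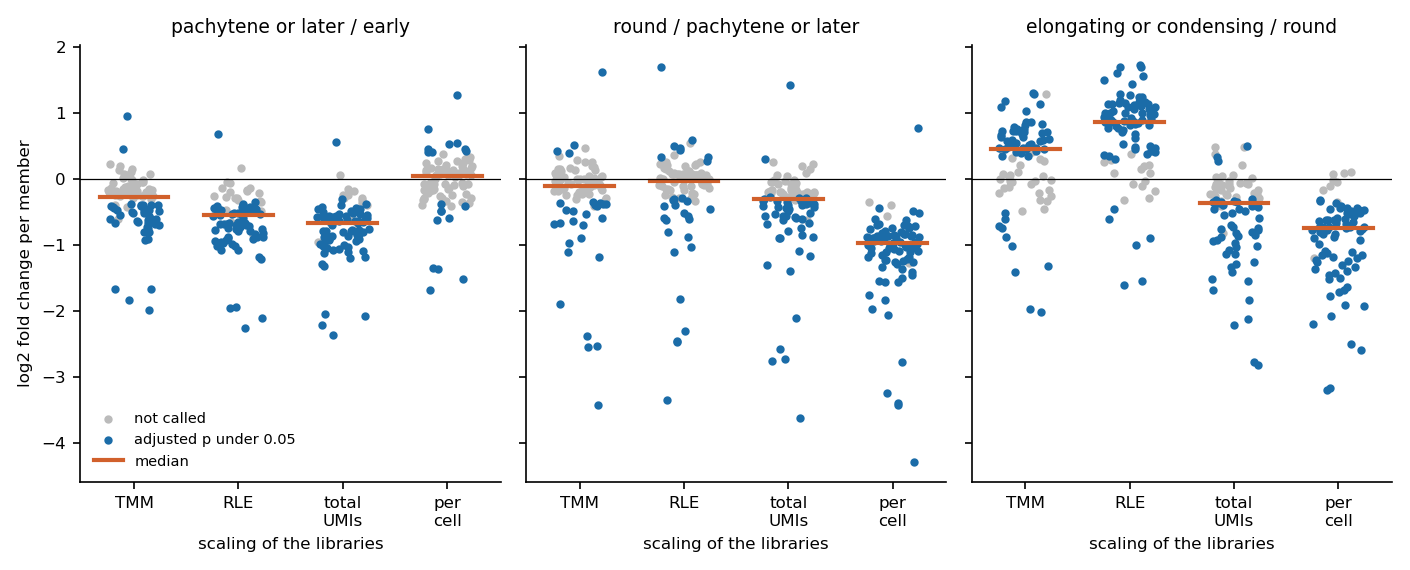
Log2 fold change of the 88 tested members (1 point each) between consecutive classes under 4 scalings, blue where the adjusted p was under 0.05, with the median as a bar. In the last comparison the median is 0.45 with TMM and 0.87 with RLE, but -0.36 with total UMIs and -0.74 per cell.

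From early to pachytene cells, members were called lower far more often than higher. With TMM, 39 of 88 members (44.3%) were lower and 2 (2.27%) higher, against 21.7% and 26.9% of all 15067 genes. With total UMIs 73 were lower and 1 higher (30.9% and 19.1% of all genes), and per cell 10 were lower and 9 higher (14.6% and 33.3% of all genes). RLE gave 66 lower and 1 higher (28.2% and 21.4%), and DESeq2 67 and 1 (25.4% and 18.8%). The median member lay at -0.28 and the median of all genes at 0.09 with TMM, and a scaling shifts both nearly alike. Called in the same direction in all 4 scalings were 10 members that were lower and 1 that was higher, against 14.6% and 19.1% of all genes. The lower members were Rpl39, Rpl22, Rpl6, Rps19, Rps15, Rplp1, Rps27l, Rpl14, Rpl19 and Rpl10a, and the higher one Rpl22l1. A call in all 4 adds little to a call in the strictest scaling. Over all genes, the 2207 lower calls were as many as per cell, and the 2880 higher calls as many as with total UMIs. In the later steps the counts over all genes likewise equalled those of 1 scaling.

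The members of the Rpl22 pair moved in opposite directions. Rpl22 was at 336 and 306 CPM in early and at 73.3 and 81.7 CPM in pachytene cells, and the classes did not overlap. It fell by 1.67 (SE 0.14, edgeR adjusted p = 5.02e-09). Rpl22l1 was at 395 and 385 CPM and then at 611 and 543 CPM, and rose by 0.95 (SE 0.15, edgeR adjusted p = 2.72e-05).

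Apart from Rpl39, Rpl10a had the largest fall. Rpl10a, the protein of the mobile L1 stalk through which used transfer RNA leaves, was at 353 and 344 CPM in early and at 72.8 and 78.0 CPM in the later class, and fell by 1.83 (SE 0.16, edgeR adjusted p = 5.68e-09). Rpl14, another large-subunit protein, was at 754 and 538 CPM and then at 164 and 143 CPM, and fell by 1.67 (SE 0.18, edgeR adjusted p = 1.04e-07). Rps27l, a paralog of Rps27, fell by 0.93 (SE 0.15, edgeR adjusted p = 2.15e-05), from 826 and 604 CPM to 297 and 272 CPM. For these 3 members the ratio had the same sign in both mice and under the 4 scalings.

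Rpl39 had the largest fitted fall, by 1.98 (SE 0.60, edgeR adjusted p = 0.0094), but it rested on mouse 1. The TMM-scaled ratio was -2.96 in mouse 1 alone and -0.44 in mouse 2 alone, with no test. Rpl10 (-0.39, edgeR adjusted p = 0.49) and Rpl36a (-0.23, edgeR adjusted p = 0.84) were not called. Rpl39l was called higher with TMM (0.45, edgeR adjusted p = 0.018) but not with total UMIs (0.06, edgeR adjusted p = 0.70).

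From pachytene to round cells, a small set of members had large falls, while the median member lay close to 0 with TMM (-0.11). With TMM, 24 of 88 (27.3%) were lower and 4 (4.55%) higher, against 33.2% and 36.8% of all genes. Total UMIs gave 46 lower and 2 higher (40.2% and 33.7% of all genes), and UMIs per cell 82 lower and 1 higher (55.1% and 26.3%). RLE gave 21 lower and 8 higher (31.2% and 38.4%), and DESeq2 21 and 8 (26.5% and 36.0%). In all 4 scalings, 21 members were lower and only Rpl10 was higher, against 31.2% and 26.3% of all genes.

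Rpl10a and Rpl14, which fell in the step before, fell again. Rpl10a was at 72.8 and 78.0 CPM and then at 9.66 and 12.8 CPM, a fall of 2.53 (SE 0.17, edgeR adjusted p = 1.90e-11). Rpl14 fell by 2.55 (SE 0.19, edgeR adjusted p = 9.41e-11), to 27.5 and 18.4 CPM. Over the 4 classes Rpl10a came from 353 and 344 CPM to 7.06 and 6.90 CPM, with each class below the one before in both mice. CPM leaves out the TMM factors, which were 1.02 and 0.988 in round and 0.567 and 0.579 in elongating cells. A smaller factor raises the scaled level, so the last of these falls is stated for CPM only.

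Small-subunit members, and Rps19bp1, which is not a ribosomal protein, were among the largest falls too. Rps27a, made as a fusion with ubiquitin that is cleaved off, was at 756 and 716 CPM and then at 140 and 107 CPM, and fell by 2.37 (SE 0.18, edgeR adjusted p = 2.10e-10). Rps3, at the channel where mRNA enters, was at 284 and 343 CPM and then at 75.3 and 70.7 CPM, and fell by 1.90 (SE 0.15, edgeR adjusted p = 4.93e-10). Rps19bp1, the binding protein, had the largest fall of all, by 3.42 (SE 0.21, edgeR adjusted p = 3.66e-12), from 91.6 and 80.9 CPM to 8.47 and 5.77 CPM. The falls of Rps27a, Rps3 and Rps19bp1 were called in all 4 scalings.

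Rpl10, the X-linked member, rose, while its paralog Rpl10l was not called (-0.09, edgeR adjusted p = 0.59). Rpl10 rose by 1.62 (SE 0.28, edgeR adjusted p = 2.67e-05), with ratios of 1.28 in mouse 1 alone and 2.04 in mouse 2 alone. Between the 2 clusters of round cells, Rpl10 was at 4.24 and 5.75 CPM in the larger and at 12.4 and 12.2 CPM in the smaller one, a difference of 1.52 (SE 0.29, edgeR adjusted p = 1.63e-04) when each cluster was its own group. Rpl10l went from 149 and 150 CPM to 96.8 and 88.9 CPM between the same clusters. Leydig markers summed to 32.1 and 21.3 CPM in the larger and 26.1 and 12.9 CPM in the smaller cluster, and their part in the Rpl10 difference was not tested. Cells with Leydig markers held 53 UMIs of Rpl10 and 48 of Rps4x, whereas round cells held 200 and 28. Rpl39 (0.46, edgeR adjusted p = 0.44) and Rpl36a (-0.01, edgeR adjusted p = 0.99) were not called.

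The 3 other members called higher with TMM changed sign with the scaling. Rps4l (0.51, edgeR adjusted p = 0.0033), Rpl39l (0.43, edgeR adjusted p = 0.015) and Rps26 (0.39, edgeR adjusted p = 0.025), a protein at the channel where mRNA leaves, were at -0.35, -0.44 and -0.48 per cell.

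From round to elongating cells, the direction of most members depended on the scaling. With TMM, 50 of 88 members (56.8%) were higher and 10 (11.4%) lower, against 27.9% and 36.8% of all genes. With total UMIs, 3 were higher and 48 lower (18.1% and 56.9% of all genes), and per cell 79 were lower (64.9%) and, by edgeR, 0 higher (14.7%), also 0 at an unadjusted p under 0.05. RLE gave 68 higher and 6 lower (34.8% and 26.6%), and DESeq2 65 and 5 (32.3% and 23.1%). The member median was 0.45 with TMM, -0.36 with total UMIs and -0.74 per cell. The median of all genes was -0.33 with TMM, and a scaling shifts both medians nearly alike. With a block for the mouse, TMM gave 40 members lower and 2 higher in the first step (23.4% and 28.7% of all genes), 27 and 5 in the second (36.3% and 38.4%), and 12 and 55 in the last (38.8% and 29.3%).

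Of the members, 6 were lower in all 4 scalings (26.6% of all genes) and 0 were higher (14.7%). The 6 were Rpl7l1, Rpl10l, Rps4l and Rpl39l, which are paralogs described above, Rps27a, and Rpl4, whose loop reaches into the exit tunnel. All 6 had lower CPM in each mouse.

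Rpl10l fell by 1.97 (SE 0.16, edgeR adjusted p = 1.07e-09), from 127 and 124 CPM to 20.5 and 16.3 CPM. Rps4l fell by 1.41 (SE 0.15, edgeR adjusted p = 3.85e-08), Rpl39l by 1.02 (SE 0.15, edgeR adjusted p = 4.64e-06) and Rpl7l1 by 2.02 (SE 0.28, edgeR adjusted p = 1.92e-06). Rpl4 fell by 1.31 (SE 0.18, edgeR adjusted p = 1.49e-06), from 263 and 295 CPM to 62.7 and 66.2 CPM. Of the 4 paralogs of X-linked genes, 3 were thus among the 5 members with the largest falls, and Rpl36al was not called with TMM (-0.22, edgeR adjusted p = 0.24).

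The largest rises with TMM did not hold per cell. Rps20, a small-subunit protein, was at 1066 and 1032 CPM and then at 1491 and 1465 CPM, and rose by 1.30 with TMM (SE 0.17, edgeR adjusted p = 5.60e-07) and by 0.49 with total UMIs (edgeR adjusted p = 9.82e-04). Per cell its value was 0.11 (edgeR adjusted p = 0.47). Rpl41 rose by 1.14 (SE 0.18, edgeR adjusted p = 8.71e-06) and Rpl22 by 1.08 (SE 0.14, edgeR adjusted p = 6.45e-07), at -0.05 and -0.11 per cell. Rpl27a, at 1.19 with TMM (edgeR adjusted p = 1.78e-05), was at -0.02 per cell, and Rpl39, at 1.28 with TMM (edgeR adjusted p = 0.040), at 0.09 per cell from few UMIs. Rpl36a, at 1.28 with TMM, was not called without the block for the mouse (edgeR adjusted p = 0.064) and was called with it (1.18, edgeR adjusted p = 0.0093). Rpl10 was at 0.83 with TMM (edgeR adjusted p = 0.0084) but at 0.03 with total UMIs and -0.35 per cell.

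Within the elongating class, Rps20 and Rpl41 had nearly equal UMIs per cell in both clusters. From the cluster of 193 to that of 514 cells, Rps20 went from 1021 and 1008 CPM to 1759 and 1872 CPM and Rpl41 from 1581 and 1377 CPM to 2916 and 2968 CPM. Per cell, the differences were -0.09 (edgeR adjusted p = 0.58) for Rps20 and 0.07 (edgeR adjusted p = 0.66) for Rpl41, while the median of all genes was -1.52. In this comparison of clusters, 59 of 87 members were higher and 5 lower with TMM (16.3% and 23.5% of all genes), 29 higher and 20 lower with total UMIs (6.11% and 36.8%), and, by edgeR, 0 higher and 66 lower per cell (0.324% and 63.6%), with 0 higher at an unadjusted p under 0.05. With a block for the mouse, 63 were higher and 10 lower with TMM (18.1% and 24.8%). Rps4l fell further there, from 153 and 158 CPM to 30.8 and 35.0 CPM.

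**Figure D5:**
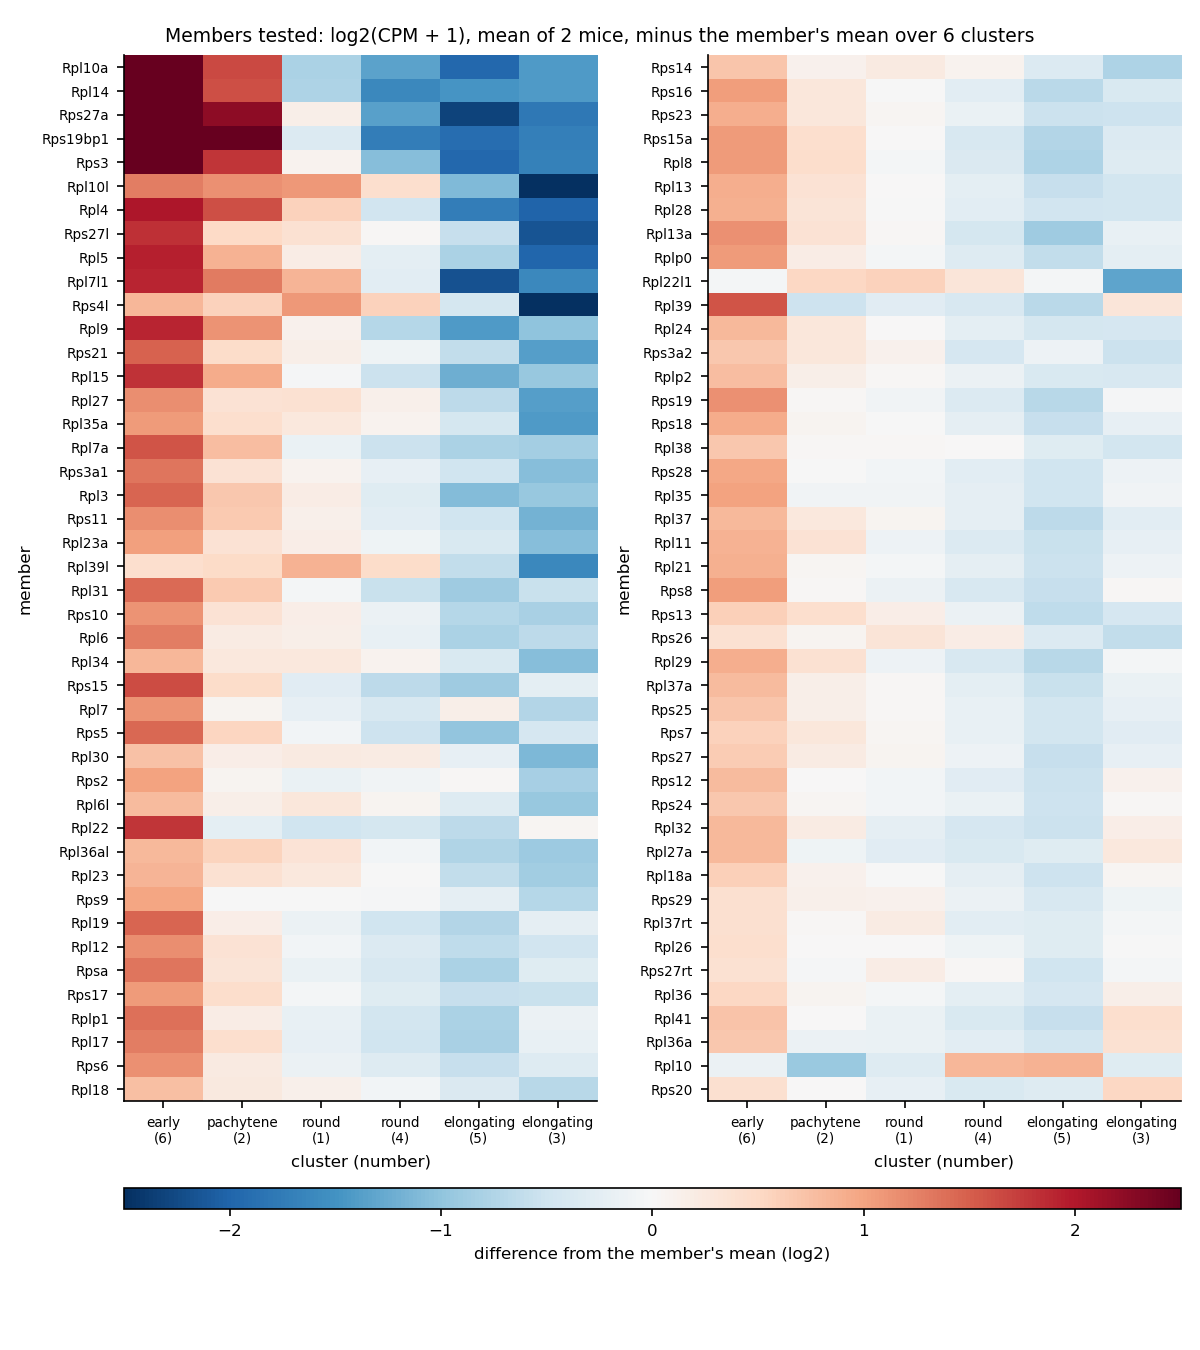
Log2 of CPM plus 1 (mean of both mice) of each tested member in 6 clusters, minus the member's mean over these clusters; rows are ordered by the difference between cluster 3 and cluster 6, which is no test, and colours end at 2.5 in either direction. Rpl10a, Rpl14, Rps27a, Rps19bp1 and Rps3 at the top left have the steepest gradient, Rpl10l, Rps4l and Rpl39l are lowest in cluster 3, and Rpl10 is highest in clusters 4 and 5.

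The subunits were also counted apart, by symbol, so that Rps19bp1 and the tested rows annotated as pseudogenes are included. From early to pachytene cells, 21 of 53 large-subunit members were lower and 2 higher, with a median of -0.26. Of 35 small-subunit members, 18 were lower and 0 higher by edgeR (0 also at an unadjusted p under 0.05, and 0 by DESeq2), with a median of -0.39. Of all genes, 21.7% were lower and 26.9% higher by edgeR, and 18.8% higher by DESeq2. The large- and small-subunit medians were -0.10 and -0.13 in the second step and 0.45 and 0.42 in the last, with TMM. The medians of all genes are given above with the scalings. The difference between subunits was not tested. Across the 84 tested members with a coding sequence, longer ones had lower fold changes in the first 2 steps (Spearman's rho -0.31 and -0.47) and less so in the last (-0.13). The correlation of the fold change with the level was 0.43, 0.28 and 0.14 over the same members. These correlations are across genes that share their libraries and are a description only.

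The mice were also compared within each class. Among members with at least 100 UMIs in a class, 0 differed more than 2-fold between mice, against 0.725% to 1.35% of all genes over the classes. With 80 to 84 such members per class, 0 is close to these shares. The members' range of log2 ratios of mouse 2 over mouse 1 was widest in the elongating class (-0.62 to 0.77). In round cells 66 of 84 such members were lower in mouse 2, with a median of -0.11, against 49.7% of all genes. In elongating cells it was 57 of 80, with a median of -0.09, against 36.9% of all genes. In the 2 spermatocyte classes the members were split more evenly, with 42 of 82 and 36 of 83 lower in mouse 2, against 49.8% and 48.6% of all genes. With 1 library per mouse, animal and library cannot be told apart.

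Genes of ribosome assembly were more often lower than higher at each step with TMM. Of 46 tested biogenesis genes, 22, 25 and 28 were lower in the 3 steps and 9, 9 and 4 higher, with medians of -0.34, -0.76 and -1.14. Of all genes 21.7%, 33.2% and 36.8% were lower and 26.9%, 36.8% and 27.9% higher. Per cell, 14 were lower and 14 higher in the first step, and 34 and 3, then 40 and 1 in the later ones, against 14.6%, 55.1% and 64.9% of all genes lower and 33.3%, 26.3% and 14.7% higher. Ncl, which encodes nucleolin, was at 188 and 106 CPM in early and at 11.1 and 14.4 CPM in pachytene cells, and fell by 3.10 (SE 0.23, edgeR adjusted p = 9.40e-10). Nop56, a protein of the RNA-methylating particles of the nucleolus, fell by 3.03 (edgeR adjusted p = 3.59e-08). Sbds, which frees new large subunits for use, rose by 1.34 in the same step (edgeR adjusted p = 7.93e-07). Nop58, the partner of Nop56, was at 123 and 118 CPM in round and at 6.71 and 6.73 CPM in elongating cells, and fell by 3.36 (edgeR adjusted p = 6.87e-13). In the last step the biogenesis median was -1.95 with total UMIs and -2.33 per cell, below that of the members under each of these scalings.

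Mitochondrial ribosomal proteins, which serve the separate ribosome of mitochondria, were more often lower than higher at each step with TMM too. Of 78 tested, 35, 44 and 42 were lower and 13, 9 and 13 higher with TMM, with medians of -0.35, -0.42 and -0.65, beside the same shares of all genes as above. In the last step 63 were lower with total UMIs and 68 per cell, with 5 higher in each, against 56.9% and 64.9% of all genes lower and 18.1% and 14.7% higher. Mrps12, a small-subunit member of this list, was at 13.4 and 12.01 CPM in pachytene, 150 and 145 CPM in round and 12.5 and 12.6 CPM in elongating cells. It rose by 3.73 (edgeR adjusted p = 1.71e-14) and then fell by 2.74 (edgeR adjusted p = 4.46e-12), while the largest rise of a cytosolic member in the second step was that of Rpl10 (1.62).

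Ribosome-linked genes outside the symbol rule were mixed. Rack1, the scaffold protein on the small subunit, fell at each step, by 1.21, 2.32 and 0.62 (edgeR adjusted p = 4.14e-06, 1.81e-10 and 0.018), from 358 and 380 CPM to 8.47 and 7.41 CPM. In all, 2, 3 and 3 of 7 tested genes of this list were higher and 1, 1 and 2 lower. Of 6 tested elongation factors 1, 1 and 2 were higher and 2, 1 and 1 lower. The shares of all genes are those given for the biogenesis list, and counts in lists this short moved with the scaling. Per cell, 1, 5 and 4 of the ribosome-linked genes and 1, 5 and 3 of the elongation factors were lower. Eef1d, a subunit of the complex that recharges elongation factor 1, fell by 0.56 and then rose by 1.42 and 2.22 (edgeR adjusted p = 0.015, 4.11e-07 and 6.67e-10), and ended at 774 and 921 CPM. Its first value was not called per cell (-0.23, edgeR adjusted p = 0.36).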

How the data were processed

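Single-cell RNA of testis tissue from 2 mice was measured in 1 droplet library each. The authors demultiplexed reads with bcl2fastq 2.17.1.14 and counted them with Cell Ranger 2.0.0 on a repeat-masked GRCm38 genome with Ensembl release 89 genes and RepBase repeats, then combined the mice with downsampling of reads. The deposited values are UMI counts after this downsampling by the authors. Cell Ranger leaves out reads that fit several places, which can lower members with near-identical pseudogenes.

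The barcode ending gave the mouse. All 2552 cells were kept; 25 doublets called by scrublet were left out in an alternative. Clusters came from K-means (K = 9, 10 components, 10 restarts, seed 42) on 27380 rows, after 511 rows (members, their pseudogenes, mitochondrial ribosomal proteins, listed pathway genes) were left out, and were named by the class with the highest mean of marker genes, if at least 3 markers reached 1.5 times their level over all cells. UMIs were summed per mouse and class for the 4 classes with at least 20 cells per mouse and tested with edgeR 4.0.16 (R 4.3.3; TMM, filterByExpr, glmQLFit, adjusted p under 0.05); all classes share 1 estimate of the spread. In data simulated for round against pachytene or later spermatocyte-like cells, 175 of 200 genes changed 4-fold were recovered with 11 false calls among 13711 genes. Apart from the changed genes, each gene had the same mean in all simulated classes, and classes of a mouse were drawn independently. In the data many genes differ between classes, so the 11 false calls give no error rate for the tests here. Same-numbered sums come from 1 animal (correlation of deviations 0.037 to 0.23), so an alternative fit took the mouse as a block. Levels are CPM per mouse; intervals are exact at 95% and cover counting error only, and a count of 0 is given with a limit of 3 counts.

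The members, gene lists, marker lists and tests were chosen with earlier results of these data known. Named members are the X-linked ones and fixed pairs, the 5 highest by CPM, the 5 largest rises and falls per comparison with the same direction in both mice, members called against the majority (up to 5), members under 10 UMIs and, per pathway list, up to 2 rises and 2 falls per comparison, of which some are given here and 1 result is not reported here; members named by the count in all 4 scalings and in the heat map follow no such rule. Positions came from GENCODE M21. The fit with each cluster as its own group and the values without the cell with over 100 Sertoli marker UMIs were added after the data had been seen. Python 3.11.15 with numpy 2.4.6, scipy 1.17.1, scikit-learn 1.9.0, scanpy 1.11.5 and matplotlib 3.10.9 was used.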

Additional observations from a re-analysis of the deposited data

Results flagged for a closer look

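Rows of ribosomal protein pseudogenes (-ps), which the symbol rule leaves out, held signal. In all they received 26086 UMIs, on 179 of 278 such rows, or 1.04% of the UMIs of members and these rows together. Most of them, 14994 UMIs in 2391 cells, were on Rplp0-ps1, while Rplp0 itself had 61516. Rplp0-ps1 took 16.1% and 22.5% of the sum of both in early spermatocyte-like cells of mouse 1 and mouse 2. Its part was much the same in the later classes, with 16.4% and 22.7% in pachytene or later cells. Round cells had 16.7% and 22.05%, and elongating cells 16.2% and 21.95%. None of the other rows listed by count exceeded 1397 UMIs (Rps23-ps1). Whether these UMIs come from the pseudogene or from reads of the parent gene was not tested.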

How the results depend on the processing

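Member counts depended most on the scaling. Leaving out called doublets mattered less, and did so in the first step with TMM. There, 51 members were lower at an unadjusted edgeR p under 0.05, in place of 40. All genes were not counted at this threshold, so the move cannot be set against theirs. The other counts here use the adjusted threshold. From early to pachytene or later cells, where TMM gave 2 higher and 39 lower, RLE gave 1 and 66, total UMIs 1 and 73, UMIs per cell 9 and 10, and DESeq2 (version 1.42.0) 1 and 67, with medians of -0.55, -0.66, 0.040 and -0.58. In the second step (4 and 24) these gave 8 higher (RLE), 2 and 46 (total), 1 and 82 (per cell) and 8 higher (DESeq2), with medians of -0.028, -0.31, -0.98 and -0.028. In the last (50 and 10) they gave 6 lower (RLE), 3 and 48 (total), 0 and 79 (per cell) and 5 lower (DESeq2), with medians of 0.87, -0.36, -0.74 and 0.87, and 0.37 without the filter. The scalings differ by construction, and the cause of each moved call was not tested. Of single members, Rps4l, Rpl39l and Rps26 in the second step and Rpl10, Rpl22, Rpl27a, Rpl41, Rpl7 and Rps27 in the last changed sign per cell (-0.35, -0.44, -0.48, -0.35, -0.11, -0.017, -0.049, -0.40 and -0.72), and Rpl7 (-0.025) and Rps27 (-0.33) with total UMIs. With the replicate block for the mouse, members numbered 2 and 40, 5 and 27, and 55 and 12, with no named call lost and Rpl36a gained in the last step. It moved the ribosome-linked list in the first step from 3 to 5 calls, as did RLE, DESeq2 and UMIs per cell. Elongation factors moved from 2 to 6 calls per cell in the second step, and from 3 to 5 in the last with total UMIs, UMIs per cell, the block, and without called doublets. Medians over cells of the member share were 7.96% in early and 4.65% in pachytene or later cells, in place of 7.72% and 4.91%. No other share, of 185 recomputed, moved by more than the spread between mice. The 185 include values of 1 mouse alone, which cannot move by more than that spread and so test nothing. Clustering with all rows, K = 10 and clustering without repeat rows moved no member count by over 1.5 times. With 2 mice, X-linked members below 20 UMIs per class and mouse allow only coarse statements.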

Other observations

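Other members with few UMIs or an annotation as pseudogene were Rpl6l (186 UMIs), Rps3a2 (53 UMIs in 52 cells), Rpl37rt (841 UMIs) and Rps27rt (2450 UMIs), a single-exon copy on chromosome 9 that is annotated as coding. In the 6 germ cell clusters, Rpl35a, a large-subunit protein, was at 1297 and 1124 CPM in early spermatocyte-like cells and at 242 and 187 CPM in cluster 3, and Rpl5, which carries 5S ribosomal RNA into the ribosome, at 199 and 270 CPM and 11.1 and 17.8 CPM. Rpl7, in contrast, was higher in cluster 5 than in cluster 4 per cell (0.67, edgeR adjusted p = 6.72e-04), with each cluster as its own group. Rpl7, Rpl35a and Rpl5 were chosen after their values were seen.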
